A study of Gallus gallus and Anas platyrhynchos and Coturnix japonica with 11 samples.

Results

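The miR-181 family was followed in the frontonasal prominence (FNP) mesenchyme, the tissue of the embryonic mid and upper face that derives largely from cranial neural crest. Its members were taken by number: every listed miRNA of the miR-181 number, whatever its species prefix, letter or strand. This gave 4 of the 186 listed miRNAs, gga-miR-181a, its partner strand gga-miR-181a*, gga-miR-181b and hsa-miR-181c*. The prefix gga marks a chicken and hsa a human miRBase sequence.

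Small RNA was sequenced from untreated chicken, quail and duck embryos at Hamburger-Hamilton stages HH20 and HH25, which number avian development. The 10 biological samples comprised 4 chicken, 4 duck and 2 quail samples, and each value is a normalized read count, PMMR, the reads on a miRNA per 1000000 reads of the library. The first samples were pools of 40 embryos, one for each species at each stage, whereas the second samples, made for chicken and duck only, were pools of 5 embryos. The study's methods describe removal of surface ectoderm and forebrain neuroectoderm before RNA extraction, and the second chicken HH25 sample was sequenced in 2 runs that were averaged here.

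A miRNA is cut from a hairpin precursor as a duplex, of which usually the mature strand is kept in the Argonaute silencing complex and the partner strand, marked with a star, is mostly degraded. Target choice depends mainly on the seed, bases 2 to 8 from the 5′ end. In vertebrates the miR-181 family is best known from blood cell development, where miR-181a tunes T cell receptor signalling, and from neural tissue and muscle differentiation.

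The 4 listed sequences are shown because seed and mapping both turn on them, with each seed in capitals.
gga-miR-181a: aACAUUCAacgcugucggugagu
gga-miR-181b: aACAUUCAuugcugucgguggg
gga-miR-181a*: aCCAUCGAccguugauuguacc
hsa-miR-181c*: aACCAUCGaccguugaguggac

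The mature strands miR-181a and miR-181b carried the same seed, ACAUUCA, and no other of the 186 miRNAs had it. They differed at 3 of 22 aligned bases, A9U, C10U and A21G, where the miR-181a base stands first and positions count from its 5′ end. The partner strands were nearly one sequence set off by a base: over 21 overlapping bases, miR-181a* and miR-181c* differed at U16G and U19G, counted from the 5′ end of miR-181a*. Their seeds are therefore shifted against each other, CCAUCGA against ACCAUCG. Because the authors allowed up to 2 mismatches in mapping, a read from either partner strand could match both sequences. The paper looked for human miRNAs among the reads left over from known chicken ones. It does not say how reads matching both partner strands were counted, so values of miR-181a* and miR-181c* are uncertain for that reason. No miRNA outside the family lay within 2 mismatches of a member.

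In the study's annotation on the chicken gga3 build, miR-181a and miR-181b each had 2 hairpins, which lay as neighbours. On chromosome 8, the miR-181a-1 hairpin spanned 2001561 to 2001664 and the miR-181b-1 hairpin spanned 2001750 to 2001838, with 85 bases between them. On chromosome 17, the miR-181a-2 hairpin spanned 10218497 to 10218587 and the miR-181b-2 hairpin spanned 10220137 to 10220221, with 1549 bases between them. A mature strand made from both hairpins is counted once, so the 2 loci cannot be told apart. The partner strand of miR-181b and the mature strand of miR-181c were not analysed here, and the hairpins that give miR-181a* were not looked up.

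Libraries held 3097711 to 10894243 reads, and the 186 miRNAs took 53.5% to 85.1% of them. That share was higher at HH25 than at HH20 in 5 of 5 pairs of samples of the same species and number, which match pool size and serve as a description only, so values were also computed relative to the reads on the listed miRNAs. Of 6 summed tissue marker lists, the white blood cell miRNAs miR-142-3p, miR-142-5p, miR-223 and miR-150 were lower at HH25 in 5 of 5 pairs, from 278 to 691 PMMR at HH20 and from 76.3 to 389 PMMR at HH25. The mesenchyme miRNAs miR-199, miR-199*, miR-140-3p and miR-140-5p summed to 11836 to 56239 PMMR over all samples, and no library lacked them. The part of these shifts in the values below was not tested. The chicken HH25 samples were the least alike, with a median of 2.28-fold between first and second sample over all miRNAs, against 1.46-fold to 1.59-fold in the other replicated groups. The first of them also stood apart in its marker lists. It held the highest neural sum, 3617 PMMR against 1107 PMMR in the first chicken HH20 sample, and this was the only pair in which that sum was higher at HH25. It also held the lowest sums of surface ectoderm (62.6 PMMR), endothelial (4992 PMMR) and mesenchymal miRNAs (11836 PMMR) of all samples. Its sums of red blood cell (99.5 PMMR) and white blood cell miRNAs (76.3 PMMR) were the lowest as well. It is the sample with the highest miR-181a, miR-181a* and miR-181c*, and the part of these cell markers in those values was not tested.

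The mature strands were moderately abundant in every sample. miR-181b ranged from 1328 to 4556 PMMR with a median of 2568 PMMR, and by its mean it ranked 39 of 186. miR-181a ranged from 1033 to 4047 PMMR with a median of 1488 PMMR and ranked 43. These levels rested on 3284 to 49638 reads per library, so counting error was small beside the differences between samples.

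The partner strands stood on different levels. miR-181a* ranged from 237 to 1162 PMMR with a median of 573 PMMR and ranked 64, on 1040 to 6541 reads. miR-181c* ranged from 6.61 to 25.7 PMMR with a median of 13.1 PMMR and ranked 170, on 21 to 140 reads. It passed 15 PMMR in 4 of 10 samples, and its lowest value, 21 reads in the first duck HH25 sample, has an exact 95% Poisson interval of 4.09 to 10.1 PMMR, which covers counting error only. Together the 4 members took 0.347% to 1.12% of the reads on listed miRNAs. The range from the lowest to the highest sample was 3.43-fold to 4.90-fold for the 4 members, below the median of 5.67-fold over all miRNAs.

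The plot of levels by sample shows that miR-181a* was higher at HH25 in each pair of samples, whereas the pairs went both ways for the mature strands.

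**Figure D1:**
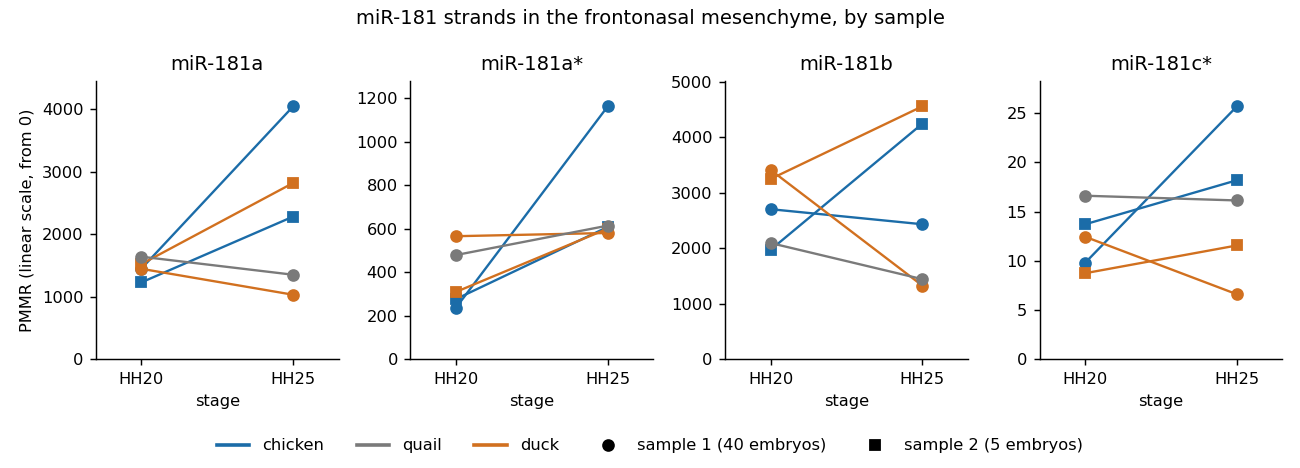
PMMR (linear scale, each panel with its own axis from 0) of the 4 miR-181 strands at HH20 and HH25; each line joins samples of the same species and sample number, with circles for the 40-embryo and squares for the 5-embryo samples. The miR-181a* points at HH25, from 581 to 1162 PMMR, all lie above those at HH20, from 237 to 566 PMMR, while the other 3 strands overlap.

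The first comparison asked how each strand changed between HH20 and HH25, the interval in which the FNP grows out. miR-181a* was the strand with the clearest difference: it was higher at HH25 in 5 of 5 pairs of samples, but in 4 of 5 relative to the reads on the listed miRNAs, and its change did not pass the adjusted threshold. The first chicken samples had 237 PMMR (HH20) and 1162 PMMR (HH25), and the second had 277 and 608 PMMR. In quail it went from 479 to 614 PMMR. The first duck samples had 566 PMMR (HH20) and 581 PMMR (HH25), and the second had 310 and 600 PMMR.

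All 5 HH25 samples of miR-181a* thus lay above all 5 HH20 samples in PMMR and after median-centring of the libraries, although they overlapped relative to the reads on the listed miRNAs. In PMMR, 4 of 186 miRNAs (2.15%) showed such a gap upward, against 8 of 186 after median-centring. In PMMR, 24 of 186 (12.9%) were higher at HH25 in 5 of 5 pairs. The gap itself was narrow, since the first duck samples at the 2 stages differed by 1.03-fold with a 95% counting interval of 0.963 to 1.09. Relative to the reads on the listed miRNAs, that pair turned to 0.917-fold. The gap also rested on averaging the 2 runs of the second chicken HH25 sample, which gave 529 and 687 PMMR. The lower run lay below the first duck HH20 sample, at 566 PMMR. Across species, limma's moderated test on log2(PMMR + 1) with species as a term gave miR-181a* a log2 change of 0.95 (SE 0.34, 95% interval 0.19 to 1.72, n = 10 samples), with p = 0.0195 unadjusted and 0.173 after Benjamini-Hochberg adjustment over the 186 miRNAs. Without the first chicken HH25 sample it was 0.69 (SE 0.28, limma adjusted p = 0.158).

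The mature strand miR-181a was higher at HH25 in 3 of 5 pairs. The first chicken samples had 1452 PMMR (HH20) and 4047 PMMR (HH25), and the second had 1231 and 2284 PMMR. In quail it went from 1642 to 1353 PMMR. In duck the samples went apart, from 1448 to 1033 PMMR in the first and from 1525 to 2821 PMMR in the second. The stages overlapped, and the limma log2 change was 0.50 (SE 0.36, 95% interval -0.30 to 1.3, adjusted p = 0.450), and without the first chicken HH25 sample it was 0.27 (SE 0.31, limma adjusted p = 0.686).

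miR-181b split by sample number rather than by species. The first samples had 2704 PMMR (HH20) and 2433 PMMR (HH25) for chicken, 2095 and 1444 PMMR for quail, and 3412 and 1328 PMMR for duck. The second samples had 1973 PMMR (HH20) and 4244 PMMR (HH25) for chicken, and 3248 and 4556 PMMR for duck. It was thus lower at HH25 in all 3 pairs of 40 embryos and higher in both pairs of 5 embryos, a pattern that 10 of 186 miRNAs (5.38%) showed. The difference between second and first samples in stage change, a test chosen after seeing the data, was 1.48 on the log2 scale (SE 0.55, 95% interval 0.20 to 2.76) with an adjusted p of 0.372 by limma, where 2 of 186 miRNAs (1.08%) passed. Sample number went together with pool size and with library depth, and these cannot be told apart. The first libraries held 3097711 to 4392404 reads and the second 6076043 to 10894243.

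For miR-181b the overall limma log2 change was accordingly near 0, at -0.09 (SE 0.37, 95% interval -0.92 to 0.74, adjusted p = 0.901), and it turned to 0.015 after median-centring. For miR-181c* the HH20 and HH25 values were 9.81 and 25.7 PMMR in the first and 13.7 and 18.2 PMMR in the second chicken samples. They were 16.6 and 16.1 PMMR in quail. They were 12.4 and 6.61 PMMR in the first and 8.75 and 11.6 PMMR in the second duck samples. Its limma log2 change was 0.24 (SE 0.37, 95% interval -0.60 to 1.07, adjusted p = 0.752). With 0 of 4 members past the adjusted threshold of 0.05, against 6 of 186 miRNAs (3.23%), the family showed no stage change that held against the scatter of the samples, and 1 of 4 members, miR-181a*, had an unadjusted p under 0.05, against 31 of 186 miRNAs (16.7%). The median log2 change was 0.37 over the members and 0.06 over all miRNAs.

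**Figure D2:**
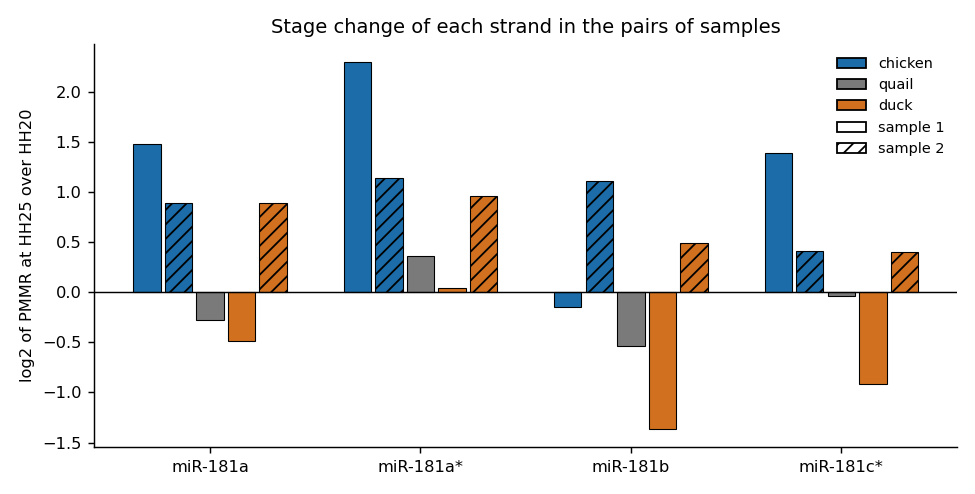
Log2 ratio of PMMR at HH25 over HH20 for each strand, with a bar for each pair of samples (plain bars for the first, hatched bars for the second samples). miR-181a* is above 0 in 5 of 5 pairs, from 0.04 to 2.29, and miR-181b is below 0 in the 3 first pairs and above 0 in the 2 second pairs.

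Within chicken, 3 strands were higher in both HH25 samples than in both HH20 samples: miR-181a, miR-181a* and miR-181c*, where 35 of 186 miRNAs (18.8%) showed this. The limma log2 change was 1.71 for miR-181a* (SE 0.54, 95% interval 0.47 to 2.95, adjusted p = 0.233) and 1.18 for miR-181a (SE 0.57, adjusted p = 0.473). No miRNA passed the adjusted threshold in that limma fit (0.0%), and 21 of 186 (11.3%) had an unadjusted p under 0.05. Without the second chicken HH25 sample, the limma log2 change was 2.18 for miR-181a* and 1.60 for miR-181a. Without the first, which stood apart in its marker lists, it was 1.24 and 0.77. Each of these fits rests on a lone chicken HH25 sample, assumed to vary like the other groups.

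Within duck, miR-181a* was higher in both HH25 samples than in both HH20 samples, where 45 of 186 miRNAs (24.2%) were, and the other 3 strands overlapped. Its limma log2 change was 0.49 (SE 0.54, 95% interval -0.74 to 1.73, adjusted p = 0.951). miR-181a and miR-181b differed widely between the duck HH25 samples, by 2.73-fold and 3.43-fold, compared with a median of 1.46-fold over all miRNAs, whereas miR-181a* differed there by 1.03-fold. No miRNA passed the adjusted threshold for the stage change within duck by limma (0.0%), and 9 of 186 (4.84%) had an unadjusted p under 0.05.

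The difference between the stage changes in duck and chicken was tested as an interaction. It was negative for all 4 strands, from -1.22 for miR-181a* to -0.91 for miR-181b, with SE of 0.77 to 0.96. The adjusted p was 0.996 by limma for each. Over all miRNAs the median interaction was -0.19, and it was positive for 69 of 186. No miRNA passed there (0.0%), and 1 of 186 (0.538%) had an unadjusted p under 0.05, so a difference between the species in stage change was not detectable with these samples.

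The second comparison asked whether the strands differed between duck, with its broad bill, and chicken. Over both stages none of the 4 did so beyond the spread of the samples, and all 4 overlapped between the species, where 10.2% of all miRNAs lay higher and 3.23% lower in duck without overlap. The limma log2 difference of duck from chicken was -0.34 for miR-181a (SE 0.41, 95% interval -1.26 to 0.58, adjusted p = 0.720, n = 8 samples) and -0.68 for miR-181c* (SE 0.46, 95% interval -1.71 to 0.36, adjusted p = 0.416). It was 0.10 for miR-181a* and 0.07 for miR-181b, with adjusted p of 0.924 and 0.930 by limma, and both signs flipped after median-centring, to -0.061 and -0.088, and relative to the reads on the listed miRNAs. Over all miRNAs 18 of 186 (9.68%) passed in this comparison by limma and 22.6%, among them no member, had an unadjusted p under 0.05, with a median log2 difference of 0.20 against -0.13 for the members.

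At HH20 alone the limma differences of duck from chicken ranged from -0.14 for miR-181c* to 0.71 for miR-181a* with SE of 0.54 to 0.68, and at HH25 they ranged from -1.21 for miR-181c* to -0.39 for miR-181b with SE of 0.54 to 0.68. No member passed at either stage, where 0.0% and 2.15% of all miRNAs passed, and the unadjusted p was under 0.05 for 12.4% and 14.0% of them and for no member. At HH25 the chicken mean was 3165 ± 1247 PMMR for miR-181a (SD, n = 2) and the duck mean was 1927 ± 1264 PMMR (SD, n = 2), so the spread within each species was as large as the difference. Limma voom on the recovered reads, an alternative chosen after seeing the data, also passed no member in any of these comparisons. Over all miRNAs voom passed 8 for the stage effect, 22 for duck against chicken over both stages, and 0 within chicken, within duck, at HH20, at HH25 and for the interaction.

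The study's own criterion was a change of at least 2-fold with more than 15 PMMR in a library. Within that set the paper also used Fisher's exact test with a Bonferroni correction, and it reported the same trends by DESeq. The fold and PMMR criterion alone was applied here to the first samples in 9 comparisons, the stages within each species and the species pairs at each stage. There are no replicates behind these folds, and comparisons that share a library are not independent. The members met it in 11 of 36 cases: miR-181a in 3, miR-181a* in 4, miR-181b in 1 and miR-181c* in 3. Over all miRNAs the share that met it ran from 16.1% for the quail stages to 53.2% for the chicken stages, and 166 of 186 (89.2%) met it at least once.

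The cases lay mostly with 1 library, the first chicken HH25 sample, which stood apart in neural, endothelial and other markers as given above. Between the chicken stages miR-181a was 2.79-fold, miR-181a* 4.90-fold and miR-181c* 2.62-fold higher at HH25. At HH25, where 52.2% of all miRNAs met the criterion between duck and chicken, miR-181a was 3.92-fold, miR-181c* 3.89-fold and miR-181a* 2.0-fold lower in duck. Against quail at HH25 (45.2% of all miRNAs), miR-181a was 2.99-fold higher in chicken.

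The cases without that library were 4. miR-181b was 2.57-fold lower at HH25 in duck (24.7% of all miRNAs). miR-181a* was 2.38-fold higher in duck than in chicken (31.2%) and 2.02-fold higher in quail than in chicken (32.8%), both at HH20. miR-181c* was 2.44-fold lower in duck than in quail at HH25 (34.4%), on 21 reads in duck.

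With the second chicken and duck samples in place of the first, 5 cases met the criterion, and a single case met it with both: miR-181a* between the chicken stages, at 4.90-fold and 2.2-fold. The others were miR-181b between the chicken stages, 2.15-fold higher at HH25, miR-181a and miR-181b at HH25 in duck against quail, 2.08-fold and 3.16-fold higher in duck, and miR-181b at HH25 in quail against chicken, 2.94-fold lower in quail, where quail has its first sample only. Of all miRNAs, the second samples put 34.4% past it for the chicken stages, 28.0% for the duck stages, and 33.3% and 32.3% for duck against chicken at HH20 and HH25. Against quail it was 35.5% and 38.7% for duck and 38.2% and 29.6% for chicken at HH20 and HH25. The 3.92-fold lower miR-181a of duck at HH25 became 1.24-fold higher in the second samples. The 2.57-fold lower miR-181b at HH25 in duck became 1.4-fold higher.

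The balance of the strands was compared as the ratio of miR-181a to miR-181a* within each library, which does not depend on the library total. Because the hairpins that give miR-181a* were not looked up, the ratio may mix use of the loci with strand choice, which was not tested. The mature strand was the more abundant in every sample, by 1.78-fold to 6.12-fold, and the ratio was lower at HH25 than at HH20 in 5 of 5 pairs. In chicken it went from 6.12 to 3.48 in the first samples and from 4.45 to 3.75 in the second. In quail it went from 3.43 to 2.2. In duck it went from 2.56 to 1.78 in the first samples and from 4.92 to 4.70 in the second. The stages overlapped, with ratios of 2.56 to 6.12 at HH20 and of 1.78 to 4.70 at HH25. For the 40 strand pairs among the listed miRNAs, the strand with the higher mean PMMR was taken as mature. In some, such as miR-144 and miR-221, that was the strand named as the star strand. Of the 40 strand pairs, miR-181a was the only one whose ratio was lower at HH25 in 5 of 5 pairs of samples, and 4 had a higher ratio in 5 of 5.

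The difference did not exceed the scatter of the samples. The log2 change of the ratio across species was -0.45 (SE 0.33, 95% interval -1.20 to 0.29, n = 10 samples) with p = 0.201 unadjusted and 0.699 adjusted over the 40 pairs by limma. An exact two-sided permutation test over samples, with stage labels permuted within species, gave p = 0.194, where 0.0278 is the smallest p that its 72 permutations allow. It was the lowest fitted change of the 40 pairs, whose median was 0.21. No pair passed the adjusted threshold by limma, and 1 of 40 (2.5%) had an unadjusted p under 0.05. Expressed as a share of both strands, miR-181a* made up 14.1% to 28.1% at HH20 and 17.5% to 36.0% at HH25.

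**Figure D3:**
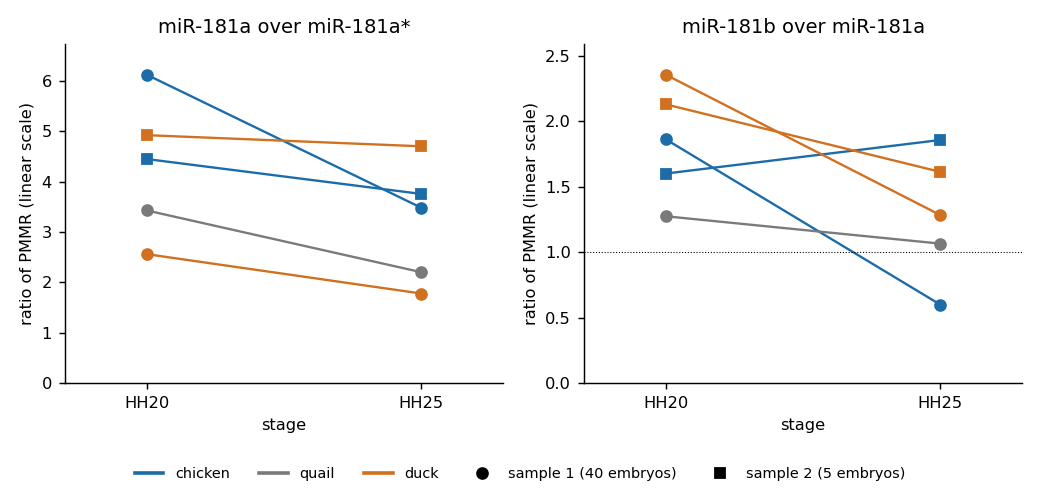
Ratio of miR-181a to miR-181a* (left) and of miR-181b to miR-181a (right) in each sample at HH20 and HH25, on linear axes from 0; lines join samples of the same species and number. The strand ratio is lower at HH25 in 5 of 5 lines, and miR-181b lies below miR-181a, under the dotted line at 1, only in the first chicken HH25 sample, at 0.601.

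Averaged over the samples, miR-181a was 3.50-fold above miR-181a*, which made it the pair with rank 13 from the lowest of 40, where the median was 12.99-fold. The neighbouring pairs were miR-301, with 3.47-fold, and miR-125b, with 3.8-fold. The partner strand thus made up a larger share than in most pairs. Duck and chicken did not differ detectably in the ratio: the log2 difference of duck from chicken was -0.44 (SE 0.38, 95% interval -1.32 to 0.45, limma adjusted p = 0.495). An exact two-sided permutation test, with species labels permuted without regard to stage, gave p = 0.371. The smallest p that its 70 permutations allow is 0.0286. No pair passed there by limma, and 8 of 40 (20.0%) had an unadjusted p under 0.05. The duck samples also spanned the widest range, since the HH25 pair differed by 2.64-fold and the HH20 pair by 1.92-fold, compared with 1.08-fold and 1.38-fold in chicken.

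**Figure D4:**
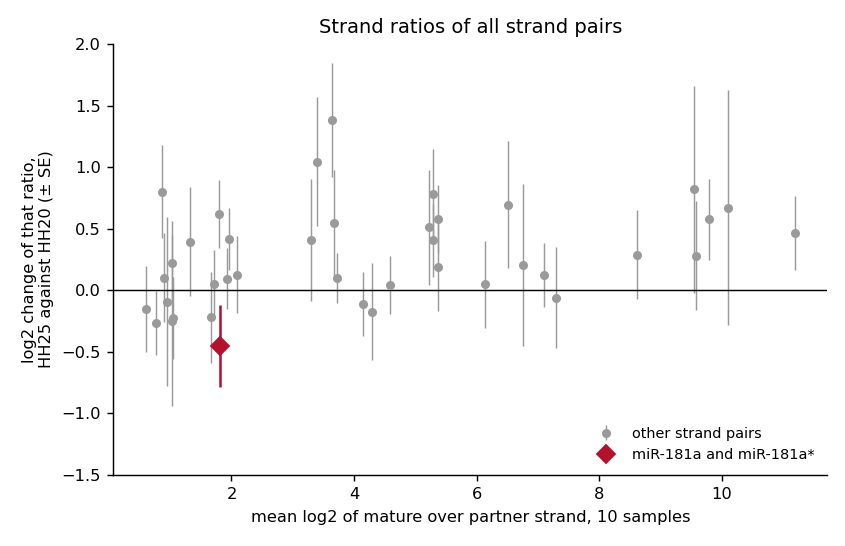
Change of the strand ratio from HH20 to HH25 (log2, ± SE from limma) against the mean log2 ratio of mature over partner strand, with a point for each of 40 strand pairs over 10 samples. Mature is the strand of a pair with the higher mean PMMR. miR-181a (diamond) has the lowest change, -0.45, and its error bar of 0.33 overlaps those of other pairs.

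The mature strands that share a seed were also set against each other. miR-181b exceeded miR-181a in 9 of 10 samples, by 1.07-fold to 2.36-fold, and the exception was the first chicken HH25 sample, where miR-181b was at 0.601 of miR-181a. In chicken the ratio went from 1.86 to 0.601 in the first samples and from 1.60 to 1.86 in the second. In quail it went from 1.28 to 1.07. In duck it went from 2.36 to 1.29 in the first samples and from 2.13 to 1.61 in the second. It was thus lower at HH25 in 4 of 5 pairs, and the second chicken pair went the other way. Both runs of the second chicken HH25 sample gave 1.85 and 1.87, so that this value did not vary with the run.

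Added together, the carriers of the ACAUUCA seed, miR-181a and miR-181b, came to 3204 to 4860 PMMR at HH20 and to 2361 to 7378 PMMR at HH25. The sum was narrow at HH20 and wide at HH25, with the first duck and the quail sample at the lower end and the second duck sample at the upper end. Within the family, miR-181a* was 20.2-fold to 87.8-fold above miR-181c*, highest in the first duck HH25 sample with its 21 miR-181c* reads.

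Likeness of pattern was described by the Pearson correlation of log2(PMMR + 1) over the 10 samples, which share tissue, protocol and in part sample number. For miR-181a, r was 0.67 with miR-181c*, 0.63 with its partner strand miR-181a*, and 0.55 with miR-181b. The Spearman rank correlation was 0.52 with miR-181c*, 0.39 with miR-181a* and 0.66 with miR-181b, so the order depended on the measure. For miR-181a*, r was 0.56 with miR-181c* and -0.01 with miR-181b, and between miR-181b and miR-181c* it was 0.13. The miRNAs most like miR-181a were miR-99a (r = 0.85), the partner strand of miR-135b (0.84) and miR-100 (0.80). miR-181a* was most like the partner strand of miR-100 (0.90), let-7g (0.89) and let-7b (0.89). miR-181b was most like miR-146a (0.79), miR-146c (0.77) and miR-369-3p (0.62), and miR-181c* was most like miR-100 (0.84), miR-2970 (0.77) and miR-489 (0.77). These were picked as the highest of all miRNAs, and the median r of a member with the others was -0.01.

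Reads are from bulk tissue, in which fewer cells of a type and less RNA per cell cannot be told apart.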

How the data were processed

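The authors sequenced 20 to 40 base small RNAs (Illumina small RNA kit), removed adapters, and used miRanalyzer release 1 to match reads, with 0 to 2 mismatches, to chicken and human miRNAs of miRBase release 16. A miRNA had to exceed 15 PMMR in some library. They deposited, for each of 11 libraries, the PMMR of 186 miRNAs and the total reads. PMMR times total reads over 1000000 gave whole reads within 0.06 for 100.0% of values. A single read was worth 0.0918 to 0.323 PMMR, and 3 reads, the limit that a count of 0 allows, were worth 0.275 to 0.968 PMMR.

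The 2 runs of the second chicken HH25 sample were averaged. log2(PMMR + 1) was tested with limma 3.58.1 (R 4.3.3), its variance prior following intensity, at a Benjamini-Hochberg adjusted p of 0.05 over 186 miRNAs, or over 40 strand pairs for the log2 ratio. Such log2 changes understate those of low miRNAs. The stage effect came from 10 samples, adjusted for species. The species effect came from the 8 samples of chicken and duck, adjusted for stage. A fit of their 4 groups gave changes within species and the interaction. Nothing says that pools came from separate batches of eggs, so p-values measure the spread between these samples. The planned count-model fits were replaced by limma voom on recovered reads, because the values came as PMMR. On simulated data with 40 of 186 miRNAs changed 4-fold, the stage fit recovered 76.4% with 1.5 false calls per set. The species fit recovered 67.8% with 1.15. The simulated noise was independent between values, and changes of other sizes and the other fits were not simulated.

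Alternatives were pseudocounts of 0.1 and 10, a mean of at least 15 PMMR, no trend, median-centring, scaling to listed reads, each run alone, a replicate block, and leaving out each sample. Members, lists and named miRNAs were chosen with earlier results of these data known: the 4 members, the 3 best correlated miRNAs of each, and the strand pairs next to miR-181a in mean ratio. Of the marker lists, surface ectoderm and neural miRNAs were higher at HH25 in 1 of 5 pairs each, red blood cell miRNAs in 2, endothelial in 3 and mesenchymal in 4. Python 3.11.15 was used with scipy 1.17.1, pandas 2.3.3, matplotlib 3.10.9 and numpy 2.4.6.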

Additional observations from a re-analysis of the deposited data

How the results depend on the processing

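Of 505 tests of a member under an alternative, 2 passed the adjusted threshold, both within chicken without the second chicken HH25 sample (0 to 2 of 4 members over the samples left out). That fit rests on a lone chicken HH25 sample, and many miRNAs outside the family passed in it as well. These 2 passes are thus not particular to the family, and no conclusion is drawn from them. The lowest adjusted p under any other alternative was 0.0526, for the stage effect on miR-181a* after median-centring (log2 change 1.06). Over the alternatives other than samples left out, the adjusted p of that effect ranged from 0.0526 to 0.236. Of the 25 changes of sign, 7 came with scaling. After median-centring the log2 change was 0.015 for the stage effect on miR-181b, and the differences of duck from chicken were -0.061 for miR-181a* and -0.088 for miR-181b over both stages and -0.17 for miR-181a at HH20. Relative to the reads on the listed miRNAs the last 3 were -0.20, -0.23 and -0.19. The cause was not tested.

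Leaving out a sample gave the other 18. The stage effect on miR-181b ranged from -0.31 to 0.24 (0.020 without either quail sample, 0.24 without the first duck HH25 sample). The difference of duck from chicken over both stages ranged from -0.53 to 0.048 for miR-181a (0.048 without the first duck HH25 sample), from -0.20 to 0.41 for miR-181a* (-0.068 without the first chicken HH20 and -0.20 without the first duck HH20 sample) and from -0.19 to 0.52 for miR-181b (-0.11 without the second chicken HH20, -0.034 and -0.006 without the first and second duck HH20, -0.19 without the second duck HH25 sample). Within duck the stage change ranged from -0.52 to 0.92 for miR-181a (-0.52 without the second HH25 sample), from -1.33 to 0.45 for miR-181b (0.45 without the first HH25 sample) and from -0.59 to 0.13 for miR-181c* (0.0045 without the first HH20 and 0.13 without the first HH25 sample). At HH20 the difference of duck from chicken ranged from -0.37 to 0.093 for miR-181c* (0.083 and 0.093 without the second chicken and duck samples), and at HH25 from -1.27 to 0.50 for miR-181b (0.016 without the second chicken and 0.50 without the first duck sample). The strand ratio kept its sign throughout, from -0.69 to -0.26 for stage and from -0.74 to -0.18 for duck against chicken. The 11 first-sample cases became 5 with the second samples and 6 with the mean of both.

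Within each chicken and duck group, the log2 difference of second minus first sample was taken for every miRNA. Between groups these differences correlated from -0.05 to 0.61, highest for chicken HH20 with duck HH20. The main tests did not use the numbers as a block, although the HH20 groups shared part of these differences. With such a block, limma passed 24 of 186 miRNAs (12.9%) for duck against chicken over both stages, against 18 without it. It passed 3 for the stage change within chicken, against 0, and 7 for the stage effect, against 6. For duck against chicken at HH25 it passed 0, against 4. Counts over pairs of the same number are a description of samples matched by pool size. With a replicate block no member passed, and the stage change of the strand ratio had a SE of 0.23 and an adjusted p of 0.421 by limma. The planned count-model fits were not run, and a mean of at least 15 PMMR leaves miR-181c* without a value. Depth limits miR-181c* most, with 21 to 140 reads per library.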
